A study of Mus musculus with 4 samples.

Results

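The comparison described here sets mice with an experimental stroke against mice with sham surgery, both given an isotype control antibody for 10 weeks. The sham group was labelled Sham Surgery and the stroke group dMCAO stroke surgery, in which a distal branch of the middle cerebral artery is blocked. All animals were male C57BL/6N mice aged 10 months. The isotype antibody was common to both groups, so animals without antibody did not enter the comparison, and the labels do not say how it was dosed. Each group was 1 library made from pooled tissue of 4 to 5 mice. The tissue, labelled sensory cortex, was the core of the infarct and the cortex up to about 2 mm around it, taken after perfusion with saline. Cells were stained for CD31, an endothelial surface protein, and CD45, a surface protein of leukocytes, with dead cells excluded. Which of the stained cells were kept is not in the labels, so every share of cells below is a share of what was loaded and may follow the gate. All cells of the 2 libraries with 500 or more unique molecular identifiers (UMIs, counts of single captured RNA molecules), 200 or more genes and no more than 10% of UMIs from mitochondria were members. They numbered 4381 of the 15434 such cells in the series, 1525 from sham and 2856 from stroke. The series has 2 further stroke libraries, treated with antibodies against VCAM1 or VLA4, which entered only the clustering.

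After a cortical infarct the dead tissue is cleared by microglia, the resident phagocytes of the brain, and by macrophages of the vessels and meninges. Lymphocytes and dendritic cells also enter, and some of these cells stay in the scar long after the acute phase. Type I interferon, a secreted antiviral signal, switches on a shared set of genes in almost every cell type through its cell surface receptor. Microglia near damage are known to turn up a set of lipid, lysosome and growth factor genes, often called disease-associated.

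Over all kept cells the 2 libraries were of similar depth. Within the named classes described below, median depth was lower in stroke in all but plasma cells. It was 7365 UMIs in sham and 6131 UMIs in stroke for microglia, 13388 and 11226 UMIs for dendritic cells, and 9731 and 10795 UMIs for plasma cells. Doublet calls removed 11 sham cells and 24 stroke cells, which left 1514 and 2832 cells with medians of 5456.5 and 5090 UMIs and of 2299.5 and 2148 genes. Total UMIs of kept cells were 9857631 in sham and 16805668 in stroke. With 1 library a side no difference has a replicate check, no test across samples was possible, and every interval is a 95% interval for counting error only. A difference is therefore one between these 2 libraries, and surgery, pool and library cannot be told apart. Log2 ratios are stroke over sham throughout. Levels are in CPM, the UMIs of a gene scaled to the UMI total of the class, in the summed cells of a library, and genes were read at 100 or more UMIs over both libraries.

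The 2 libraries shared 59 cell barcodes, where other pairs of libraries in the series shared 1 to 8. The copy with fewer UMIs was in stroke for 55 of the 59 barcodes and held a median of 3.16% of the UMIs of the larger copy. Its median was 603 UMIs, against 18156 for the larger copies. The genes of the 2 copies were more alike than those of different barcodes, with a median correlation of 0.506 against 0.282 over 1000 genes, and 59 of 59 lay above the median of other pairings. Of these smaller copies, 51 passed the filters in the stroke library, 1.80% of its kept cells, and 25 of them were classed with microglia. Without the smaller copies, none of 190 gene ratios moved by more than 0.0685 and none of 53 list medians by more than 0.0488. Class shares moved by up to 0.380 on the log2 scale, and those without the smaller copies are given beside the main ones.

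**Figure D1:**
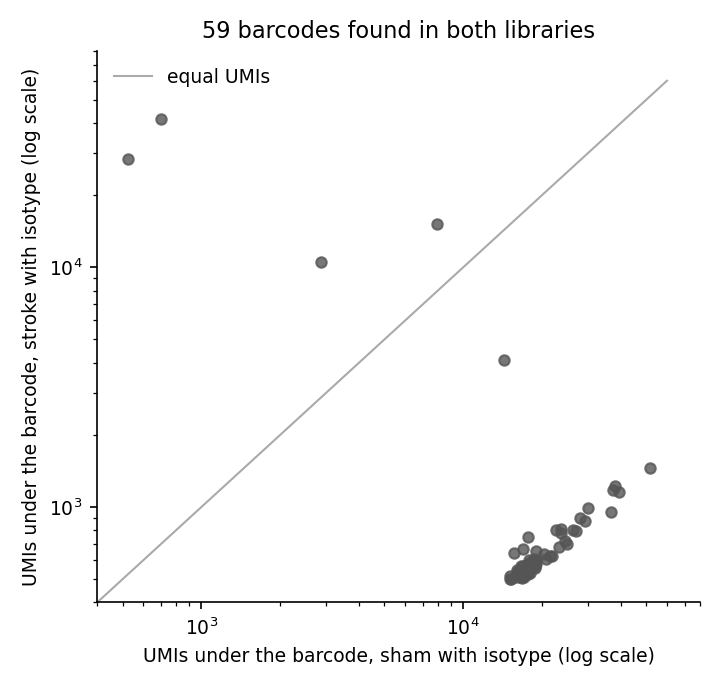
UMIs of each of the 59 barcodes found in both isotype libraries, sham on the horizontal and stroke on the vertical axis, both on log scales. In 55 of them the stroke copy is the smaller one, and 56 smaller copies hold under 5% of the larger.

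The stroke library held a larger share of lymphocytes and a smaller share of endothelial cells than the sham library. Clusters were named from marker genes, so the names below are short for cells like the named type. T cell-like cells were 44 of 1514 in sham, or 2.91% (interval 2.12% to 3.88%), and 158 of 2832 in stroke, or 5.58% (4.76% to 6.49%). Their log2 ratio was 0.94 (0.45 to 1.46), and 0.95 without the smaller copies of shared barcodes. B cell-like cells went from 15 cells (0.991%, interval 0.556% to 1.63%) to 87 cells (3.07%, 2.47% to 3.78%), a ratio of 1.63 (0.83 to 2.53), or 1.66 without those copies. Antibody-secreting plasma cell-like cells numbered 4 in sham (0.264%) and 25 in stroke (0.883%), with a ratio of 1.74 (0.21 to 3.72), or 2.12 without those copies. As shares of kept cells the 3 intervals lie above 0. For plasma cells the interval was -0.04 to 3.48 among named leukocytes and -0.24 to 3.27 among cells other than endothelium and microglia, and both include 0. A cluster led by Trdv4 and Il23r, described below, held 4 sham cells (0.264%) and 59 stroke cells (2.08%), a ratio of 2.98 (1.55 to 4.90), or 3.003 without those copies.

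Myeloid classes differed less than lymphoid ones as shares of kept cells. Microglia-like cells were 45.8% of sham cells (693 cells) and 51.9% of stroke cells (1470 cells), a ratio of 0.18 (0.05 to 0.31) with or without the smaller copies. Taken as a share of named leukocytes the microglial ratio was -0.065. Border macrophage-like cells, the macrophages of perivascular and meningeal spaces, were 7.0% (106 cells) and 5.86% (166 cells), a ratio of -0.26 (-0.62 to 0.11) whose interval includes 0. Among cells other than endothelium and microglia they went from 36.7% to 22.5%, a ratio of -0.71 (-1.07 to -0.34). By that share T cells had 0.49 (0.002 to 1.01) and B cells 1.18 (0.38 to 2.08). Of named leukocytes the border macrophage ratio was -0.50 (-0.86 to -0.14). Cells like type 2 conventional dendritic cells, which present antigen to CD4 T cells, were 27 (1.78%) and 67 (2.37%), a ratio of 0.41 (-0.26 to 1.11). This class held 7 of the smaller copies, and its ratio without them was 0.27. Among cells other than endothelium and microglia its ratio was -0.041 (-0.71 to 0.66). All leukocyte classes other than microglia summed to 12.9% and 17.8%, a ratio of 0.46 (0.22 to 0.70). Of cells other than endothelium and microglia they were 67.8% and 68.2%, a ratio of 0.0072 (-0.23 to 0.25).

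Endothelial-like cells were 35.1% of sham cells (532 cells) and 22.0% of stroke cells (624 cells), a ratio of -0.67 (-0.84 to -0.50). Leaving out the smaller copies gave -0.66, and a stricter filter on cells gave -0.86. Shares sum to 100%, so a lower share in one class goes with higher shares elsewhere whatever the numbers in the tissue. Pericyte-like cells, the contractile cells of capillary walls, numbered 10 (0.661%) and 13 (0.459%), a ratio of -0.52 (-1.83 to 0.82). No cluster had the markers of smooth muscle or of fibroblasts, the other mural and scar-forming cells, and 1 sham and 3 stroke cells had 3 or more smooth muscle markers. Astrocyte-like cells, which carry neither stained surface protein, were 4 and 20. Clusters without a name held 5.22% and 7.13% of cells.

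**Figure D2:**
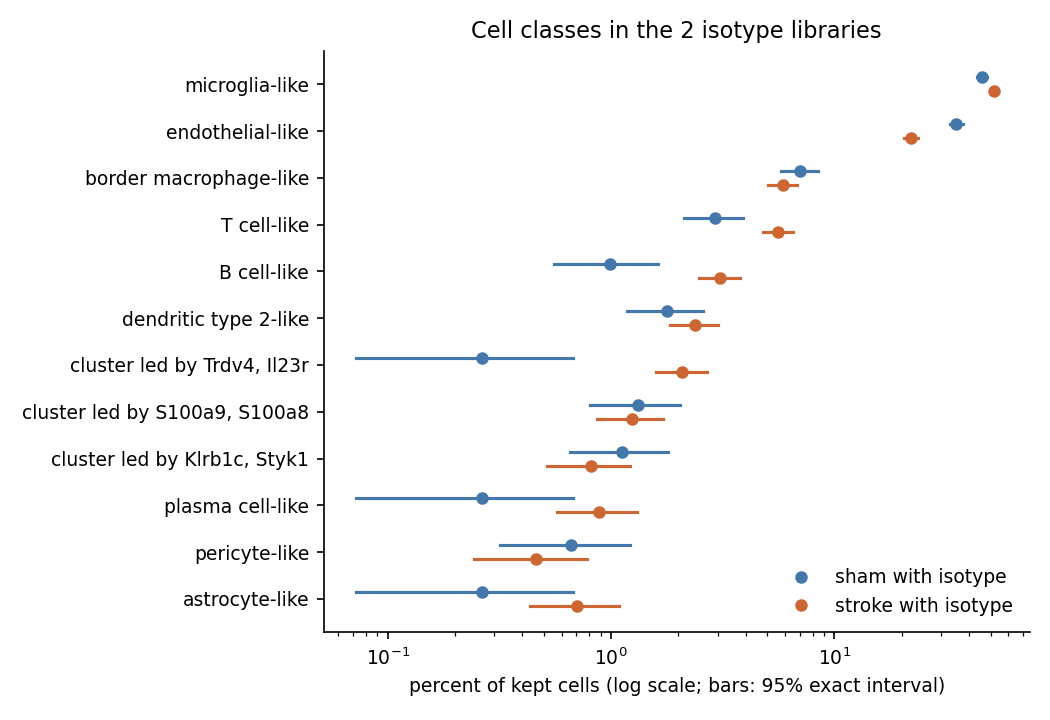
Share of kept cells in each class, sham against stroke, on a log axis in percent, with exact 95% intervals as bars. T, B and plasma cell-like cells and the cluster led by Trdv4 and Il23r lie higher in stroke, and endothelial-like cells lie lower.

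The T cells were mostly of the CD8 kind in both libraries. Of the sham T cells 36 of 44 had a UMI of Cd8a or Cd8b1 without Cd4, and of the stroke T cells 118 of 158. Cells with Cd4 and no Cd8 numbered 4 and 13. The cluster that held most of the class was the same in both libraries, with 65.9% of sham and 44.9% of stroke T cells, and a second cluster held 29.5% and 41.1%. Endothelial cells, which should lack these genes, had a Cd8b1 UMI in 0 of 532 and 0 of 624 cells. Median depths were 5235.5 and 4485.5 UMIs for T cells and 3977 and 3883.5 UMIs for endothelial cells.

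Among T cell genes, a memory cell receptor and a granzyme were higher in stroke, and an integrin chain and an activating receptor were lower. Il7r, the interleukin 7 receptor of long-lived memory cells, stood at 155 CPM in sham and 381 CPM in stroke, a log2 ratio of 1.29 (0.82 to 1.81). After thinning each cell to 1000 UMIs, 14.0% of 43 sham cells and 25% of 152 stroke cells had an Il7r UMI, against 38.6% and 63.9% before thinning. Gzmk, the granzyme of a memory-like CD8 subset, was at 190.0 and 362 CPM, a ratio of 0.93 (0.49 to 1.40). Both genes were thus higher in stroke, though clustering the 2 isotype libraries alone brought Gzmk to 0.34. Itga1, the collagen-binding integrin chain found on tissue-resident T cells, was at 376 and 139.9 CPM, a ratio of -1.42 (-1.84 to -1.01). Its share of thinned cells was 34.9% in sham and 12.5% in stroke. Klrk1, which encodes the activating receptor NKG2D, was at 376 and 148 CPM, a ratio of -1.34 (-1.75 to -0.93), or -0.63 with called doublets kept.

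The cytotoxic list did not move as one. Of its 15 genes 11 were measurable in T cells, with 8 higher and 3 lower in stroke, a median of 0.07 and 2 genes up and 1 down by 1.5-fold or more. Over all 1522 genes read in the class the median was -0.08, with 2.69% higher and 8.67% lower by that fold. Ccl5, a chemokine that draws T cells and monocytes, was at 4865 and 6022 CPM, a ratio of 0.31 (0.22 to 0.40), and Nkg7, a protein of cytotoxic granules, had a ratio of 0.08 (-0.10 to 0.28). Ifng, the gene of interferon gamma, was at 93.04 and 141 CPM, and its interval of -0.05 to 1.31 includes 0. The residency list had 6 of 12 members measurable, 3 higher and 3 lower, with a median of -0.12. Of the trafficking receptors 9 of 12 were measurable with a median of 0.04. They include Itga4, the alpha chain of the integrin VLA4 that holds cells on VCAM1, at 558 and 709 CPM, a ratio of 0.34 (0.08 to 0.62). Ctla4, an inhibitory receptor, had a ratio of 1.01, but 0.18 in thinned cells, where 14.0% and 14.5% of cells had a UMI, and 2.84 when the 2 libraries were clustered alone.

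Interferon genes were mostly too low to read in T cells. Of the 20 genes 4 were measurable, 2 higher and 2 lower, with a median of -0.38, or 0.36 without the highest cell of each gene, and 1 sham cell held 63.9% of the Isg15 UMIs. Other T cell genes at the extremes of the ranking had varied roles. Pde3b, a phosphodiesterase that lowers cyclic AMP, was at 620.3 and 294 CPM, a ratio of -1.08. Zfp36l2, which binds AU-rich RNA and holds back T cell responses, was at 775 and 372 CPM, a ratio of -1.06. Ppp1r16b and Atp8b4 had ratios of -1.07 and -1.05, the latter -0.30 with called doublets kept. On the higher side were Nsa2 and Gas5, a ribosome assembly factor and a noncoding RNA, with ratios of 0.66 and 0.61, and Gdi2, whose 0.74 turned to -0.26 with doublets kept. The split depends on the scale: of T cell genes past 1.5-fold, 23.7% were higher, but 39.5% with the median ratio set to 0 47.7% with mitochondrial, ribosomal, haemoglobin and Malat1 UMIs left out of the totals, 54.5% in thinned cells and 54.7% without the highest cell of each gene.

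The cluster led by Trdv4 and Il23r was unlike the main T cells. Trdv4 is a variable segment of the delta T cell receptor chain, and Il23r encodes the receptor for interleukin 23. The cluster stayed without a name because it had 8 detected T cell markers and only 2 of group 2 innate lymphoid cells, the class with the highest score. In stroke 48 of its 59 cells had a UMI of a CD3 chain, 24 had Cd4 without Cd8, 33 had neither, and 17 of those 33 had a UMI of a gamma or delta constant region. In the same 59 cells Icos, a costimulatory receptor, was found in 44 cells and Ctla4 in 35, and both are among the genes that led the cluster. Cells with Cd4 and cells with gamma delta UMIs thus lay in the same cluster. Foxp3, the factor of regulatory T cells, was found in 7 cells, Il17a in 4 and Gata3 in 19. Of the 4 sham cells 3 had a CD3 UMI, and 4 cells allow no description of levels.

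A second lymphoid cluster, led by the natural killer receptor Klrb1c and by Styk1, held 17 sham cells (1.12%) and 23 stroke cells (0.812%). It had 8 detected T cell markers beside 4 of natural killer cells and stayed without a name. Ccl4, a chemokine of activated killer cells, was at 1913 CPM in sham and 487 CPM in stroke, a ratio of -1.97 (-2.37 to -1.59). Xcl1, which attracts cross-presenting dendritic cells, was at 1725 and 767 CPM, a ratio of -1.17 (-1.51 to -0.83). Klrd1, the CD94 receptor chain, had a ratio of -1.37. These effector genes were lower in the stroke cells of the cluster. A CD3 UMI was found in 7 of 17 sham and 12 of 23 stroke cells. Of cells with neither Cd4 nor Cd8, 10 of 16 in sham and 6 of 20 in stroke had a gamma or delta constant region UMI. The part of this makeup in the ratios was not tested. Ccl5 had a ratio of 0.45 and Satb1, a chromatin organiser of young lymphocytes, of 1.12.

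B cells of both libraries mostly made IgM. Ighm was the heavy chain constant gene with the most UMIs in 12 of 15 sham and 79 of 87 stroke B cells, and in 4 of 4 and 23 of 25 plasma cells. Ighd led in 3 and 4 B cells, and genes of the switched IgG classes led in 4 stroke B cells and 2 stroke plasma cells. H2-Aa, an MHC class II chain, was at 2178 CPM in sham and 2126 CPM in stroke, and Cd74, the chaperone of class II, at 9812 and 9226 CPM. Bach2, a repressor that holds back plasma cell fate, was at 2203 and 637 CPM, a ratio of -1.79 (-2.06 to -1.52). Ebf1, an early B lineage factor, was at 4329 and 1897 CPM, a ratio of -1.19 (-1.37 to -1.01).

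The stroke B cells also carried microglial transcripts. All 9 microglial markers were seen in them with a sum of 2879 CPM, against 1 of 9 and 12.8 CPM in sham, where Cx3cr1 and P2ry12 were at 0. A B cell cluster that held 11 stroke cells and no sham cell, with a median of 12260.5 UMIs over its cells in all libraries, belonged to this class. The part of these transcripts in the B cell ratios was not tested. B cell markers summed to 12079 CPM in sham and 7333 CPM in stroke, so Bach2 and Ebf1 were lower alongside the markers of the class.

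Igkc, the kappa light chain that plasma cells make in great amounts, was found outside the B lineage more often in stroke. Endothelial cells had an Igkc UMI in 14 of 532 sham cells (2.63%) and 152 of 624 stroke cells (24.4%). For microglia the shares were 5.34% and 26.5%, for border macrophages 2.83% and 20.5%, for T cells 4.55% and 30.4%, and for dendritic cells 3.70% and 38.8%. In endothelium this was 6.79 and 66.7 CPM. Its ratio of 3.12 was the highest of the ranked endothelial genes. B cells had far more Igkc, at 7583 and 4674 CPM. They have fewer than 50 cells in sham and so did not enter the comparison of classes behind the endothelial ranking. Plasma cells, 4 in sham and 25 in stroke, were at 335378 and 433003 CPM.

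Stroke dendritic cells had higher values for most measurable interferon and MHC class I genes than sham ones, on small numbers of cells. Isg15, a ubiquitin-like protein induced by interferon, was at 32.8 CPM in sham and 461 CPM in stroke, a log2 ratio of 3.77 (2.95 to 4.83). Irf7, the factor that amplifies interferon production, was at 11.9 and 214 CPM, where the sham value rests on 4 UMIs. In thinned cells an Isg15 UMI was found in 3.70% of 27 sham cells and 21.7% of 60 stroke cells, and before thinning in 18.5% and 28.4%. Of the 20 interferon genes 6 were measurable, 5 higher and 1 lower, with 4 past 1.5-fold and a median of 1.95. Genes were read at 100 UMIs over both libraries, so members low in sham qualified only through stroke cells. Among them were Irf7, with 4 sham UMIs, and Isg15, at 32.8 CPM in sham. The counts and the median include them. Over 1556 genes the median was -0.04, with 8.74% higher and 15.9% lower by that fold. These values depended on which cells were counted, and naming each cell by its own markers brought Isg15 to 0.12 and the list median to 0.59.

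The counts behind the interferon difference lay in few cells. Interferon UMIs per 10000 UMIs of a cell had medians of 12.05 in sham and 15.1 in stroke dendritic cells. The highest sham cell had 56.6 and the highest stroke cell 294.1, with 2 of 27 and 11 of 67 cells above 50. The top stroke cell held 21.1% of Isg15 and 28.6% of Irf7 UMIs.

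Promoters of interferon genes are shown because this gene set recurs in the classes below. They were searched for the core of the interferon-stimulated response element, the element bound by interferon response factors, taken as GAAA, any 2 bases and GAAA again, in the 250 bases before the gene start on either strand. A promoter window from RefSeq (GRCm38.p6) was read for 13 of the 20 list genes, and 8 of them (61.5%) had the motif, against 936 of 27025 genes (3.46%). Any windows of list genes on a chromosome set aside were not counted, a limit not applied to the 27025 genes. Capitals mark the motif or, where they read TTTC, its reverse complement, which overlaps itself in Isg15, and each line runs 5′ to 3′ on the strand of the gene.
Isg15, chr4:156200860-156200911, minus strand: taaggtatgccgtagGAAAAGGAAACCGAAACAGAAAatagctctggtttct
Ifit3, chr19:34583358-34583431, plus strand: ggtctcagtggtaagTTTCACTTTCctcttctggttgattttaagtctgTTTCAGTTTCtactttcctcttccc
Rsad2, chr12:26456548-26456587, minus strand: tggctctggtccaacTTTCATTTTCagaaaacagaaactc
The Isg15 stretch holds 3 matches, 78 to 66 bases before the start, Ifit3 holds 2 and Rsad2 holds 1. A match is a description of the letters and says nothing of binding in these cells.

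MHC class I genes were also higher in stroke dendritic cells, with all 7 measurable members of the list of 11 above 0, 5 of them past 1.5-fold, and a median of 0.59. Psmb8, a catalytic subunit of the immunoproteasome, was at 369.9 and 715 CPM, a ratio of 0.95 (0.66 to 1.25). H2-K1, a class I heavy chain, was at 465 and 784 CPM, a ratio of 0.75 (0.49 to 1.02). Psme2, part of the proteasome activator, had a ratio of 1.39. The class II list, in contrast, had a median of 0.06 over 7 of 7 genes, with Cd74 at 19418 and 22284 CPM.

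The lower genes of stroke dendritic cells included regulators of inflammatory signalling. Tnip3, which restrains NF-kappa B, was at 2094 CPM in sham and 373 CPM in stroke, a ratio of -2.49 (-2.70 to -2.28). A UMI of it was found in 48.1% of thinned sham cells and 20.0% of thinned stroke cells. Socs3, an inhibitor of cytokine receptors, was at 346 and 134 CPM, a ratio of -1.36. Nfkbiz, an atypical NF-kappa B inhibitor, had a ratio of -1.27, Dab2, an endocytic adaptor, of -1.40, and Trerf1, a transcription factor, of -1.30. Higher were Traf1, an adaptor of TNF receptors, with 1.37, or 0.59 with each cell named by its own markers and 2.42 in thinned cells. Basp1, a membrane protein, had 1.48, or 0.86 with that naming. After thinning it had a UMI in 0 of 27 sham cells, which allows a share of up to 12.8%, and in 16 of 60 stroke cells, against 18 of 27 and 41 of 67 before. Ccr2, the receptor that brings monocyte-derived cells out of blood, was at 599.5 and 378 CPM, a ratio of -0.66 (-0.94 to -0.39).

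The makeup of the dendritic class also differed between libraries. Ccr7, the receptor that guides mature dendritic cells to lymph nodes, had a UMI in 0 of 27 sham cells, which allows a share of up to 12.8% by the exact interval, and in 10 of 67 stroke cells (14.9%), or 3.33% of thinned cells. Of 8 migratory dendritic markers 3 were seen in sham and 8 in stroke, with sums of 194 and 892 CPM. Border macrophage markers summed to 582 and 81.5 CPM and microglial markers to 740 and 345 CPM. Markers of monocytes summed to 796 and 1030.4 CPM. The part of these other cell types in the ratios was not tested. Dissociation stress genes, which respond to tissue digestion, were lower in stroke for 15 of 17 genes with a median of -0.35. Of the dendritic genes past 1.5-fold 35.4% were higher, 45.5% with the reduced totals, 51.3% without the highest cell of each gene and 80.0% in thinned cells.

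Border macrophages had lower values for most inflammatory genes in stroke. Ccl12, a monocyte attractant, was at 1265 CPM in sham and 443 CPM in stroke, a log2 ratio of -1.51 (-1.69 to -1.34). Ccl7 was at 741 and 331 CPM, a ratio of -1.16 (-1.38 to -0.95), and Ccl2 at 734 and 335 CPM, a ratio of -1.13 (-1.34 to -0.92). The proteins of both genes bind the monocyte receptor CCR2. In thinned cells a Ccl7 UMI was found in 23.3% of 103 sham and 13.3% of 158 stroke cells, and a Ccl2 UMI in 29.1% and 19.0%. The Ccl12 shares were closer, at 27.2% (18.9% to 36.8%) and 22.8% (16.5% to 30.1%). Of the sham Ccl12 UMIs 1 cell held 19.6%. Cxcl2, which draws neutrophils, was at 1068 and 484 CPM, a ratio of -1.14 (-1.32 to -0.97). Of the 14 measurable inflammatory genes 13 were lower, 6 of them past 1.5-fold, with a median of -0.52. Cxcl10, among these 6, met the limit on UMIs over both libraries through sham, with 158 sham and 39 stroke UMIs. Its top cell held 49.4% of the sham and 82.1% of the stroke UMIs. The counts and the median include Cxcl10. Over all 2639 genes read the median was -0.04, with 2.24% higher and 4.96% lower by that fold. Inflammatory UMIs per 10000 UMIs of a cell had medians of 118.6 in sham and 73.3 in stroke, so the median cell was lower too. Il1b, at 1595 and 1251 CPM, and Tnf, with a ratio of -0.39, were lower by less than 1.5-fold.

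Interferon genes of border macrophages gave opposite pictures by sum and by cell. Isg15 was at 356 CPM in sham and 109 CPM in stroke, a ratio of -1.70, and Rsad2, an antiviral enzyme, at 176 and 40.4 CPM. The interferon list had 12 of 14 measurable genes lower, 6 past 1.5-fold, and a median of -0.41. The limit on UMIs over both libraries was met through sham by genes such as Rsad2, with 118 sham and 36 stroke UMIs. Iigp1, with 145 sham and 45 stroke UMIs, met it in the same way. The counts and the median include both genes. However, 1 sham cell held 49.8% of the Isg15 UMIs and 51.7% of the Rsad2 UMIs. Per cell the median was higher in stroke, with 17.2 interferon UMIs per 10000 against 13.04 in sham. Cells above 50 were 19 of 106 (17.9%) and 24 of 166 (14.5%), and the highest cells had 462.7 and 243.2. Without the highest cell of each gene Isg15 had a ratio of -0.97 and the list a median of -0.20, and in thinned cells the list median was -0.02. Naming each cell by its own markers turned Rsad2 to 0.14.

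**Figure D3:**
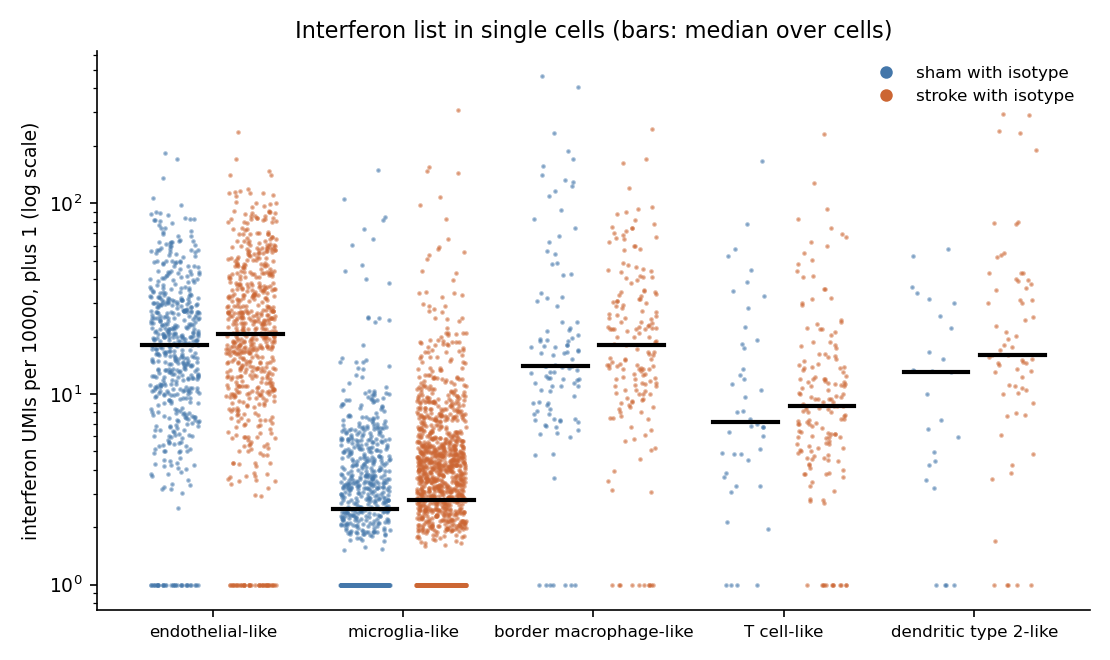
Interferon list UMIs per 10000 UMIs of each cell, plus 1 on a log axis, by class and library, with medians marked. Stroke medians lie above sham medians in all 5 classes, and the highest border macrophage is a sham cell.

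Hspa1a and Hspa1b were higher in stroke border macrophages, while most of the stress list that holds them was not. Hspa1a, a stress-inducible chaperone, was at 140.2 and 333 CPM, a ratio of 1.24 (0.91 to 1.60), and was found in 7.77% and 20.9% of thinned cells. Hspa1b had a ratio of 1.74, and Hsp90aa1, another chaperone of the list, of -0.23. Dusp1, a phosphatase of MAP kinases, was at 734 and 368 CPM, a ratio of -0.995 (-1.20 to -0.79), and the stress list had a median of -0.32 over 19 genes. Ctsd and Ctsb, lysosomal proteases, had ratios of 0.57 and 0.57, both under 1.5-fold. Ctsb was at 1055 and 1566 CPM. The disease-associated list had 13 of 14 measurable genes higher with a median of 0.24, and 1 of them, Lgals3, a galectin of phagocytes, was past 1.5-fold. Its ratio of 0.65 was 1.41 without the highest cells and 0.02 at a clustering resolution of 2.

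Lipid and iron genes of border macrophages split. Abca1, which exports cholesterol, was at 189 and 304 CPM, a ratio of 0.68 (0.37 to 1.00). Cd36, a scavenger receptor for oxidised lipids, was at 337 and 194 CPM, a ratio of -0.79, or -0.00033 with called doublets kept. The lipid list, with 3 genes higher and 6 lower, had a median of -0.54, and 0.086 in thinned cells. Iron genes had a median of 0.25 with 6 of 8 higher, among them Fth1, the ferritin heavy chain, at 6314 and 7557 CPM. Perivascular identity genes had a median of 0.03 over 9 genes. Of these Mrc1, the mannose receptor, was at 1521 and 1526 CPM, and Cd209f, a lectin of perivascular macrophages, at 178 and 76.2 CPM, a ratio of -1.21. The class II list had a median of 0.09, with Cd74 at 13413 and 15601 CPM, but -0.72 with called doublets kept.

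Remaining border macrophage genes at the ends of the ranking were Sdc4, a heparan sulfate proteoglycan, at -1.12, and Tsc22d3, a glucocorticoid-induced leucine zipper protein, at -1.06. On the higher side stood Lars2, a mitochondrial leucyl-tRNA synthetase, at 137 and 323 CPM, Cmss1 at 0.92 and Bank1, a signalling scaffold, at 0.77. Over both libraries Lars2 and Cmss1 were at 243 and 888 CPM here, and at 974 and 2194 CPM in endothelium. They are also among the leading genes of the low-count cluster led by AY036118 and Gm19951, described below. Bank1, one of the B cell naming markers, was at 252 CPM here and 1448 CPM in B cells. In border macrophages the markers of the class summed to 4937 and 5002 CPM, those of microglia to 2109 and 2474 CPM, and those of monocytes to 473 and 408 CPM. The part of the other classes was not tested. Median depth was 5879 UMIs in sham and 4670.5 UMIs in stroke.

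Microglia of the stroke library had higher values for most disease-associated genes, while no homeostatic gene differed by 1.5-fold. The class was made of clusters whose shares differed: one with a median of 8236.5 UMIs held 37.4% of sham and 27.4% of stroke microglia, one with a median of 2443 UMIs 27.4% and 30%, and one led by Il1a, Hcar2 and Gpr84 2.16% and 6.53%. The part of this makeup in the ratios was not tested. Apoe, the lipid carrier, was at 410.2 CPM in sham and 1495 CPM in stroke, a log2 ratio of 1.86 (1.80 to 1.93). In thinned cells an Apoe UMI was found in 10.1% of 690 sham cells and 21.8% of 1433 stroke cells, and before thinning in 28.3% and 41.8%. Csf1, the growth factor of microglia themselves, was at 106 and 225 CPM, a ratio of 1.08 (0.95 to 1.22), with 4.64% and 9.98% of thinned cells. Cst7, a cysteine protease inhibitor, was at 7.67 and 32.6 CPM, a ratio of 1.95 (1.61 to 2.60). Lpl, lipoprotein lipase, was at 2.69 and 15.5 CPM, a ratio of 2.17 (1.74 to 3.44). Both were rare, with Cst7 in 3.32% and 7.82% and Lpl in 1.44% and 2.38% of cells. For Lpl, 1 stroke cell held 33.8% of the stroke UMIs, and the thinned shares were 0% and 0.768%.

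Of the 17 measurable disease-associated genes 16 were higher, 8 past 1.5-fold, with a median of 0.46. The limit of 100 UMIs over both libraries was met through stroke by Spp1, with 1 and 748 UMIs, and Lpl, with 14 and 145. The counts and the median include both. All 9375 genes read had a median of -0.04, with 1.13% higher and 1.08% lower by that fold. The list sum per cell had medians of 98.9 and 113.6 UMIs per 10000. Spp1, which encodes osteopontin, was seen in few cells: 1 of 693 sham and 14 of 1470 stroke microglia had a UMI, and 1 stroke cell held 90.8% of the UMIs. Genes of the list that nearly every microglia expresses differed little, such as Trem2, a lipid receptor, at 1208 and 1331 CPM and Ctsd at 2826 and 2979 CPM. The homeostatic list had a median of -0.06 over 15 of 15 genes, 4 higher and 11 lower and none past 1.5-fold. P2ry12, the nucleotide receptor of surveying microglia, was at 1769 and 1677 CPM and Tmem119, a microglial surface protein, at 618 and 574 CPM.

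Inflammatory genes of microglia went the other way from those of border macrophages in part. Cd83, a surface marker of activation, was at 1299 and 1861 CPM, a ratio of 0.52 (0.48 to 0.56), and was found in 52.8% and 62.5% of thinned cells. Il1b, the interleukin 1 beta gene, was at 35.9 and 77.4 CPM, a ratio of 1.09, but -0.21 when each cell was named by its own markers. Tnf was at 166 and 235 CPM, a ratio of 0.50 (0.39 to 0.62), while Ccl2 was lower, at 75.01 and 51.1 CPM. The list had 9 of 14 measurable genes higher and a median of 0.11. Whether the classes differed in their stroke ratios was not tested, since 1 library a side allows none.

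Hspa1a, Hspa1b and Hsph1 were higher in stroke microglia. Hspa1b was at 73.1 and 187 CPM, a ratio of 1.34 (1.19 to 1.52), with 4.35% and 13.3% of thinned cells. Hspa1a was at 146 and 262 CPM and Hsph1, a co-chaperone, at 54.3 and 100.5 CPM. Zfp36, an RNA decay factor, was at 1046 and 672 CPM, and the whole stress list had a median of -0.16 with 6 higher and 13 lower. Lower genes outside the lists were Htr1f, a serotonin receptor, with a ratio of -1.02, Dusp6, a phosphatase that dampens ERK, with -0.80, Adrb1, an adrenergic receptor, with -0.76, Cited2 with -0.74 and Chka, choline kinase, with -0.74. Vcam1 was at 28.8 and 54.7 CPM, a ratio of 0.90 (0.66 to 1.20). Microglial interferon genes had a median of 0.05, with 9 of 13 measurable genes higher, and complement genes a median of -0.01 over 8. The class II list of microglia had a median of -0.43, but the stricter cell filter turned it to 0.95, and 1 sham cell held 36.7% of the H2-Aa UMIs.

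Endothelial cells of the stroke library had higher values for most interferon genes. Ifit3, an interferon-induced antiviral protein, was at 51.9 CPM in sham and 98.8 CPM in stroke, a log2 ratio of 0.91 (0.62 to 1.24), and was found in 3.79% of 528 and 7.76% of 606 thinned cells. Isg15 was at 207 and 292 CPM, a ratio of 0.49 (0.33 to 0.66), with 13.6% and 20.0% of thinned cells. Ifit2 was at 20.8 and 40.3 CPM, Usp18, a brake on interferon signalling, at 41.6 and 65.99 CPM, and Igtp, an interferon-induced GTPase, at 41.2 and 63.1 CPM. Of the 20 genes 17 were measurable, all 17 had ratios above 0, 12 with intervals above 0 and 5 past 1.5-fold, and the median was 0.37. Over 6999 genes the median was -0.03, with 1.24% higher and 1.74% lower by that fold. The median cell had 17.0 interferon UMIs per 10000 in sham and 19.6 in stroke, and cells above 50 were 49 of 532 (9.21%) and 100 of 624 (16.0%). Of the genes outside the list Gbp4, another interferon-induced GTPase, had a ratio of 0.77. Class I genes had a median of 0.09, with Psmb9, an immunoproteasome subunit, at 54.3 and 84.5 CPM, a ratio of 0.63 (0.33 to 0.95).

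The endothelial gene with the lowest ratio among those ranked was Sox18, a transcription factor of vessel development. It was at 428 CPM in sham and 166 CPM in stroke, a ratio of -1.36 (-1.53 to -1.21), with a UMI in 32.6% and 15.7% of thinned cells and in 68.6% and 45.0% of all cells. Ccn1, a matrix signalling protein, was at 60.7 and 27.5 CPM, and Nr4a2, an immediate early nuclear receptor, at 85.9 and 41.02 CPM. Stress genes were lower for 17 of 18 with a median of -0.43, 5 of them past 1.5-fold, such as Egr1 at 40.8 and 18.5 CPM. For Egr1 the top cell held 21.6% of sham and 28.8% of stroke UMIs, and the thinned shares were 1.52% and 1.16%. Acvr2a, an activin receptor, had a ratio of -0.90 and Nckap5 of -0.89. Polr2l, a subunit of RNA polymerases, was at 20.4 and 54.9 CPM, a ratio of 1.39 (0.96 to 1.92), and Msl3, a chromatin protein, had 0.87. Of endothelial genes past 1.5-fold 41.6% were higher, and 52.2% with the median ratio set to 0.

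Lists of barrier and vessel type genes had medians from -0.17 to 0.07. The clusters of the class differed in share: the largest, led by Mecom and Lmntd1, held 48.3% of sham and 36.4% of stroke endothelial cells, one led by Hmcn1 and Mecom 12.2% and 18.9%, and one led by Alpl and Hey1 6.39% and 10.6%. The part of this makeup in the ratios was not tested. The 13 barrier genes had a median of -0.12, with Cldn5, the main tight junction claudin, at 3273 and 2990.1 CPM, a ratio of -0.13 (-0.17 to -0.09). The 13 measurable Wnt target genes had a median of -0.15, arterial genes of -0.17, venous genes of -0.07 and capillary genes of 0.07. In the capillary list Cxcl12, the chemokine that retains leukocytes, was at 4112 and 5270.3 CPM, a ratio of 0.36 (0.32 to 0.39). Angpt2, which loosens vessels, was at 23.98 and 41.7 CPM, a ratio of 0.77 (0.34 to 1.27), in an angiogenesis list with a median of -0.04 over 8 genes. Vcam1 was at 85.1 and 42.4 CPM, a ratio of -0.99 (-1.34 to -0.67), and 1 stroke cell held 37.8% of its UMIs. Of the activation list 6 of 14 genes were measurable, with a median of -0.16. Endothelial markers summed to 20814 and 20106 CPM, pericyte markers to 127 and 164 CPM, and microglial markers to 75.9 and 129.5 CPM.

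**Figure D4:**
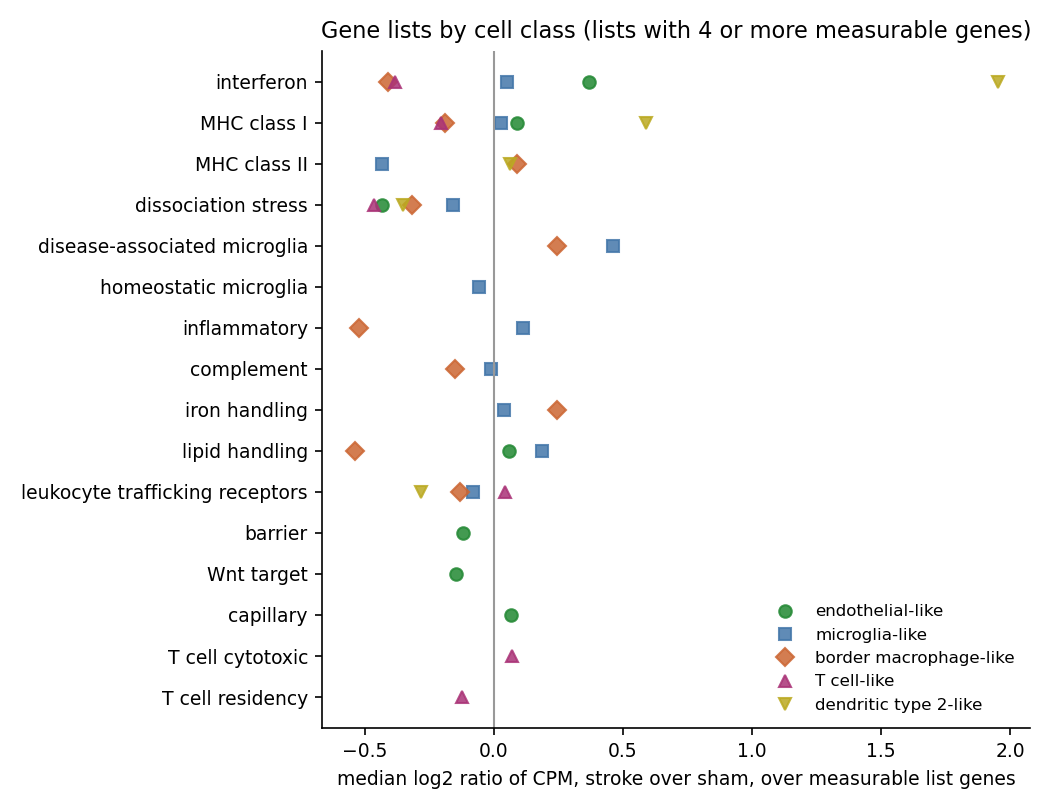
Median log2 ratio of stroke over sham for 16 gene lists in the classes where 4 or more of their genes were measurable, with a vertical line at 0. The dendritic interferon list stands at 1.95, the microglial disease-associated list at 0.46 and the inflammatory list of border macrophages at -0.52.

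Most pericyte genes read did not differ beyond counting error with 10 and 13 cells. Vtn, a secreted pericyte protein, was at 12156 CPM in sham and 11672 CPM in stroke, and Rgs5, a regulator of G protein signalling, at 4570.2 and 4587 CPM. Pdgfrb, the receptor that keeps pericytes on vessels, was at 1399 and 1104 CPM with an interval of -0.91 to 0.24. Abcc9, a potassium channel subunit, had an interval of -0.01 to 1.15, and both intervals include 0. Cst3, a protease inhibitor that microglia make in large amounts, was lower, at 4135 and 2378 CPM. Acta2, the contractile actin of smooth muscle, was found in 1 of 10 and 1 of 13 cells. A cluster with pericyte and endothelial markers, led by Vtn and Ndufa4l2, held 1 sham and 11 stroke cells and stayed without a name.

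The cluster led by S100a9 and S100a8, calcium-binding proteins of neutrophils and monocytes, held 20 sham cells (1.32%) and 35 stroke cells (1.24%). It had 3 neutrophil and 7 monocyte markers and stayed without a name. S100a9 was at 25354 CPM in sham and 13032 CPM in stroke, a ratio of -0.96 (-1.03 to -0.89). H2-Eb1 and Apoe, chosen after their values were seen, were higher in its stroke cells. H2-Eb1 was at 1018 and 2134 CPM, a ratio of 1.07 (0.79 to 1.35), and Apoe at 2181 and 5083 CPM, a ratio of 1.22. Ccl4 was lower, at 1618 and 236 CPM. The mix of neutrophils and monocytes in each library was not tested.

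**Figure D5:**
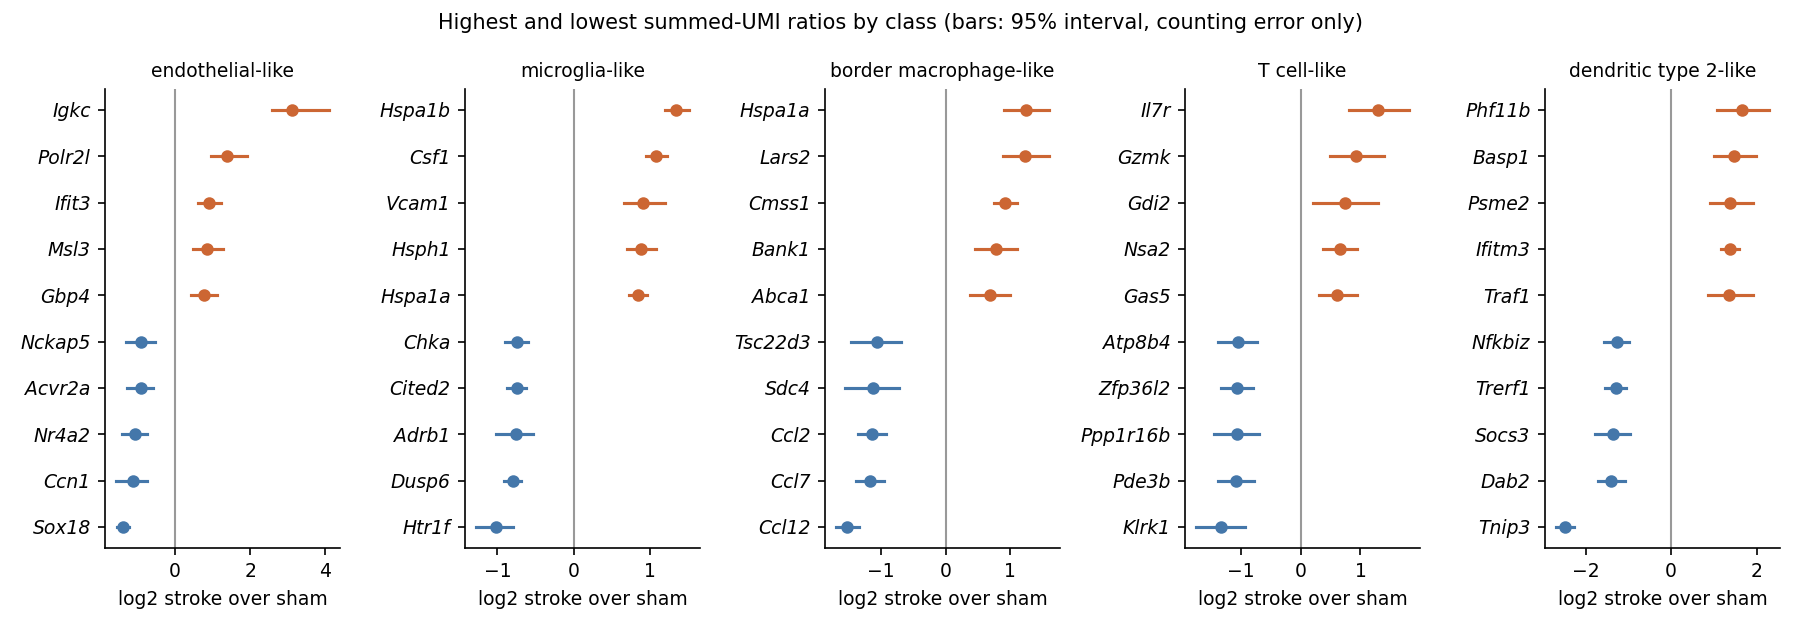
Log2 ratio of stroke over sham of the genes chosen by rank in each class, with 95% counting intervals as bars. Sox18 in endothelium lies at -1.36, Ccl12 in border macrophages at -1.51 and Tnip3 in dendritic cells at -2.49.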

How the data were processed

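Per the labels' protocols, droplet libraries used the Chromium 3′ kit, version 3.1, aiming at 10000 cells each. Per the file headers, Cell Ranger 7.0.1 wrote the deposited matrices, which hold unscaled UMI counts for each gene in each barcode, while the submitters' processing notes name Cell Ranger 6.0.0 and Seurat 4.3.0.1. Those notes list mm10 and GRCh38 as builds without saying which made these counts. The smallest barcode totals were 510 and 500 UMIs, so cells had been called before deposit.

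The 2 isotype libraries were compared with groups taken from the sample titles. The members and gene lists were chosen with earlier results of these data known. Clustering used scanpy 1.11.5 with igraph 0.11.9 and scikit-learn 1.9.0, and statistics used scipy 1.17.1 under Python 3.11.15, with pandas 2.3.3 and numpy 2.4.6. Scrublet, run per library with an expected rate of 0.05, marked 0.721% and 0.840% of cells as doublets. Cells of all 4 libraries were clustered on 2000 variable genes, 30 components, 15 neighbours and Leiden resolution 1, leaving out 490 listed and technical genes, and cells outside endothelium and microglia were clustered again. Of 30 clusters, 7 stayed unnamed. A cluster took a name when at least 3 of its markers were found in 25% or more of its cells and were higher there by a log2 fold of 1 or more, and no other class had more markers among its top 10 genes. Folds taken against other classes, and the rule that a second class with over 0.5 of the detected markers leaves a cluster unnamed, were settled after the clusters were seen. The T and dendritic classes, with 44 and 27 sham cells, were described across genes although the planned minimum was 50.

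For each class of a library the UMI counts were added up and expressed as CPM. Log2 ratios used a pseudocount of 1 CPM. Intervals at 95% were exact Poisson for CPM, Clopper-Pearson for shares and conditional binomial for ratios, without the pseudocount. The named genes were, per class, the 5 highest and 5 lowest ratios with 200 UMIs over both libraries and 50 CPM in either, and up to 3 members of each list with the largest ratios. Limits on UMIs over both libraries can be met through 1 library, so a gene low in the other can enter by its high side. Mitochondrial, ribosomal, haemoglobin, predicted and receptor variable genes were left out of that ranking, as were genes over 10 times higher in another of the 3 classes with 50 or more cells in each library and genes of which 1 cell held over 20% of UMIs. Against all 6 named classes with 50 cells over both libraries, 1 of the 50 ranked genes, Igkc in endothelium, would also have been left out. Other genes, and the genes of small clusters, were chosen after their values were seen. Some genes are not reported here, although counts over the lists include them. Shares of cells with a UMI were also taken after thinning to 1000 UMIs, which leaves out shallower cells. Scripts were tested on simulated counts.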

Additional observations from a re-analysis of the deposited data

How the results depend on the processing

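Shares of classes kept their direction under the alternatives run, except microglia and dendritic cells: 64 of their values moved by less than the counting interval, the endothelial share went to -0.86 under a stricter cell filter, border macrophages to -0.71 of cells outside endothelium and microglia, microglia to -0.065 of named leukocytes, and dendritic cells, whose interval included 0, to -0.041 of cells outside endothelium and microglia. Of the list medians 682 values stayed within their spread, 38 moved and 12 reversed, and of the gene ratios 2382 stayed, 248 moved and 16 reversed. The cause of these shifts was not tested. No paired analysis was possible because each group was 1 library. The small T cell, border macrophage and dendritic classes limit what the depth can show.

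A reversal is a change of sign in a gene ratio of 1.5-fold or more, or in a share whose interval lay off 0. List medians had no interval, and counted when their size exceeded the median distance from middle to end of their genes' intervals. The T cell interferon median, at 0.36 without the highest cells, changed sign without being counted. Smaller ratios changed sign too, such as microglial H2-Ab1 (0.90 with the stricter filter) and T cell Icos (1.32 with only the isotype libraries clustered). Reversals were as follows. With the stricter filter the microglial class II median was 0.95, H2-Aa 1.86 and H2-Eb1 1.48, and with only the isotype libraries clustered they were 0.28, 0.28 and 0.33, while thinning gave 0.078 for H2-Aa. With each cell named by its own markers the microglial inflammatory median was -0.10 and Il1b -0.21, border macrophage Rsad2 was 0.14 and dendritic Phf11b -0.35. The border macrophage lipid median was 0.038 with that naming and 0.086 after thinning. Their class II median was -0.14 with that naming, -0.039 after thinning, -0.72 with doublets kept, -0.23 at resolution 2 and -0.32 with only the isotype libraries clustered. With doublets kept Mylip in border macrophages was 0.56, and in T cells Gdi2 was -0.26 and Maf -0.46, with Maf at -0.36 at resolution 2. In T cells with only the isotype libraries clustered, the stress median was 0.19, Hmgb2, the sole cell cycle gene measured, was 0.39, and Ifi27l2a was 0.56. Ifng was -0.014 after thinning and T cell Isg15 was 0.17 without the highest cells.

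The percentages of genes past 1.5-fold moved most, higher genes first in each pair. Thinning gave 2.55% and 3.05% in endothelium, 1.97% and 1.66% in microglia, 23.9% and 5.98% in dendritic cells, and 7.89% higher in T cells. Reading genes from 20 UMIs gave 4.06% and 4.53% in endothelium, 3.002% and 2.97% in microglia, 8.80% and 11.1% in border macrophages and 10.9% and 16.6% in T cells. Reading from 200 UMIs gave 0.725% and 0.808% in endothelium, 0.671% and 0.697% in microglia, and 1.25% and 1.79% higher in border macrophages and T cells. A pseudocount of 10 CPM gave 0.529% and 0.657% in endothelium and 0.373% and 0.235% in microglia. In border macrophages the higher share was 7.23% with doublets kept, 5.90% with cells named by their own markers and 4.14% with only the isotype libraries clustered, and resolution 2 gave 3.40% and 3.09%. T cells had 4.69% and 5.26% under the stricter filter, 5.37% and 19.4% with doublets kept, 4.57% and 5.22% at resolution 0.5, 5.07% and 18.3% at resolution 2, 5.396% and 4.46% without the highest cells, and 4.73% and 5.19% with reduced totals. Their higher share was 5.75% with only the isotype libraries clustered and 4.46% with cells named by their own markers. Dendritic cells had 13.6% higher without the highest cells.

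Other ratios named above that moved by over 1.5 times were endothelial Ifit2 after thinning (1.70), border macrophage Sdc4 after thinning (-1.93), Ctsd with only the isotype libraries clustered (1.39), and Hspa1a with doublets kept (1.98), and Traf1 and Basp1 as given above. A pseudocount of 10 CPM brought Cst7, Lpl and Igkc to 1.27, 1.01 and 2.19.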

Other observations

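Values outside the comparisons above came from small clusters. A cluster led by Apoe and Tyrobp held 3 sham and 23 stroke cells, and haemoglobin genes such as Hbb-bs had UMIs in its stroke cells and none in its sham cells. A cluster led by AY036118 and Gm19951, with a median of 892.5 UMIs over the 4 libraries, held 18 sham cells (1.19%) and 22 stroke cells (0.777%). A cluster led by F13a1 and Pf4, which had border macrophage and T cell markers together, held 16 and 29 cells. In it Hspa1b, a heat shock chaperone, was at 26.6 CPM in sham and 314 CPM in stroke, and Cx3cr1, a microglial chemokine receptor, at 2416 and 1838 CPM.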
